A study of Drosophila melanogaster with 12 samples.

Results

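Type II neuroblasts are the few stem cells of the larval fly brain that divide through intermediate neural progenitors and so give rise to large lineages. The mid-larval step from 36 h to 50 h after hatching was followed here by setting the 3 libraries of 50 h against the 3 libraries of 36 h, which are 6 of the 12 libraries of the study. Every gene of the count table took part, and the rows of the ERCC spike-in RNAs (synthetic transcripts added to each tube) were left out of the library sizes. The other 6 libraries are of 24 h and 84 h. All are Drosophila melanogaster type II neuroblasts, GFP-labelled and taken from the larval CNS at 25 °C from larvae of matched age (within 2 h), and the labels name no treatment and no mutant. Each library came from a small pool, of 105, 115 and 132 sorted cells at 36 h and of 124, 106 and 101 at 50 h, drawn from 30 dissected brains, per the labels. Neither the strain nor the driver of the GFP label is named in the labels, which limits how far the sorted cells can be described. Whether the 3 libraries of an age stem from different dissections is not stated either, so that a p-value speaks of the spread among these libraries, which may be technical. The replicates of an age are written r1, r2 and r3.

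Neuroblasts change what they make as they age. Young larval neuroblasts are known to hold much of the RNA-binding protein Imp and old ones much of the RNA-binding protein Syp, and the 2 proteins oppose each other and set the fates of the neurons born at each time. The nuclear receptor svp and the steroid hormone ecdysone, acting through its receptor EcR, are known to help trigger the change from the early to the late state in larval life. Stem cell divisions in this lineage also depend on Notch signalling, on nutrient sensing through the insulin receptor, and on an asymmetric division machinery.

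The 36 h libraries held 4668707 to 5241944 gene counts and the 50 h libraries 4512098 to 5765181. Before scaling with TMM factors, 3 counts correspond to 0.520 to 0.665 CPM (counts set to a common library total). CPM scaled with TMM factors are the unit of every level below. On the first principal component of the 12 libraries, which held 29.1% of the variance, the 36 h libraries lay between -25.8 and -13.01 and those of 50 h between 22.8 and 33.3. Library 50 h r1 stood apart, with an ERCC share of 0.120% against 0.345 to 0.445% in the other 5 and with 10797 genes detected against 9215 to 9914. Scaling to the ERCC totals in place of TMM moved the median of all genes to a log2 fold change (log2FC) of 1.10, or of 0.34 without that library. Changes below are therefore relative to the bulk of the transcriptome, and in pooled cells fewer cells of a type and less RNA per cell cannot be told apart.

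The stem cell markers were there at both ages. Of the 8 type II markers 0 were called. The Ets factor pnt, which specifies the type II fate, stood at 645, 1070.5 and 644 CPM at 36 h and at 589, 715 and 589 at 50 h. For tll, the orphan receptor, levels were 276, 383 and 333 CPM and then 236, 341 and 319. The proneural gene ase, low in type II neuroblasts, had at most 10.4 CPM in any of the 6 libraries. CR43283, the long noncoding RNA cherub of the type II lineage, was the most abundant marker with 225975, 183211 and 119896 CPM and then 107810, 123051 and 91972, and its groups overlapped (log2FC -0.71 ± 0.28, SE here and below, adjusted p = 0.181). Markers of other cells gave 0 calls apart from the neuron list, described below. The 14 glia markers summed to 822 to 901 CPM at 36 h and 754 to 879 at 50 h. The glial factor repo had at most 2.96 CPM. Other glia markers were high in all 6 libraries, namely nrv2 (268 to 369 CPM), ogre (199 to 317) and Eaat1 (190 to 274). The 35 neuron markers summed to 1180 to 1543 and then 1058 to 1373 CPM. Of 24 tested, 14 were above 0 with a median log2FC of 0.29, and unc-13 (254 to 508 CPM) and Syx1A (229.5 to 325) were among the highest. The 14 muscle markers summed to 70.1 to 99.9 and then 72.9 to 122 CPM, and wupA, Mlc1 and TpnC73F were at 0 in all 36 h libraries. Of 5 tested, 3 were above 0 with a median of 0.07. Of these, bt had 4.67, 0 and 1.97 and then 19.3, 11.5 and 9.48 CPM, without overlap and without a call (adjusted p = 0.12). The sums of the 19 hemocyte and fat body markers did not overlap between the ages, with 47.1 to 65.8 and then 72.3 to 111 CPM. Of 9 of them tested, 0 passed and 7 were above 0 with a median log2FC of 0.89, and Fbp2, Lsp2 and nimC1 were at 0 in all 6 libraries. The 13 optic lobe and eye disc markers summed to 189 to 308 and then 279 to 321 CPM, and 8 of 9 tested were above 0 with a median of 0.55. Their part in the results below was not tested.

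Of 7978 genes tested, 339 changed between 36 and 50 h, which is 4.25%, at an adjusted p under 0.05. Of these, 150 were higher at 50 h (1.88%) and 189 were lower (2.37%). An unadjusted p under 0.05 was reached by 1387 genes. The rises were of 2.13-fold in the median and the falls of 2.09-fold, and 83 rises and 103 falls reached 2-fold. Rises of 4-fold or more were more often seen, 44 against 23 falls. The genes that fell went in sum from 84583 to 32848 CPM, or from 49187 to 25709 without Imp. Those that rose went from 25583 to 56608 CPM, or from 14151 to 28092 without Syp. The 3 libraries of 50 h did not overlap those of 36 h for 145 of the 150 and for all 189, while the same held for 13.1% (upward) and 12.1% (downward) of all genes tested, called or not. The count was 157 without 36 h r2, 186 without 50 h r1, 212 without 50 h r2 and 199 without 50 h r3. Scaling to the ERCC totals called 144 up and 4 down, or 25 up and 4 down without 50 h r1.

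**Figure D1:**
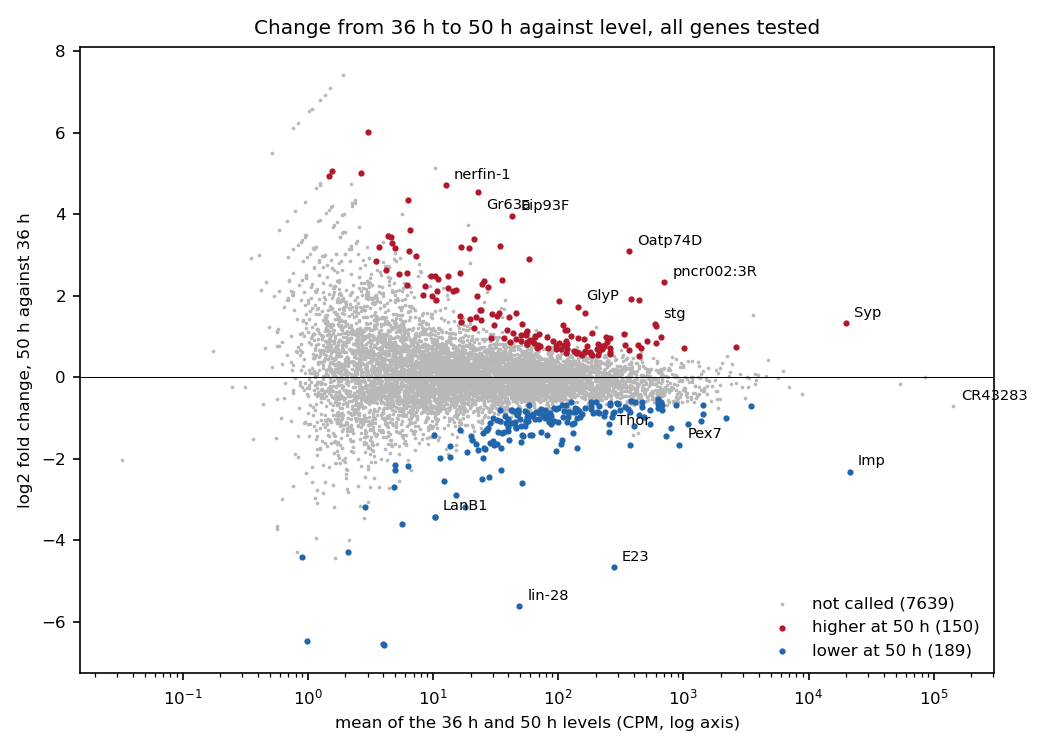
Each point is 1 of the 7978 genes tested, with the mean of its 36 h and 50 h levels in CPM on a log axis and its log2 fold change at 50 h against 36 h. The 150 genes called higher (red) and the 189 called lower (blue) lie among the uncalled genes in grey, and Imp and Syp are the called genes at the far right.

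How far a change could be seen depended on the level. Of genes under 10 CPM, 1.11% were called (33 of 2969), with a median size of 3.20 on the log2 scale and a median SE over all genes of that class of 0.82. From 10 to 100 CPM, 4.56% were called, with a median size of 1.22. Of genes at 100 CPM or more, 10.2% were called (141 of 1389), with a median size of 0.83 and a median SE of 0.18. Smaller changes in rare transcripts were not detectable at this spread. Counts of gene lists below stand against 1.88% called higher and 2.37% called lower among all genes tested. Of all these genes 52.3% were above 0, with a median log2FC of 0.03. Each call of a gene between 36 and 50 h named below held in the 12 fits that left out 1 library each, unless an adjusted p without a library is given.

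Imp (FBgn0262735) was at 38031, 40592 and 27568 CPM in the 36 h libraries and at 7352, 7842 and 6221 CPM at 50 h. Every 50 h library was below every 36 h library, a fall of 4.96-fold (adjusted p = 3.27e-07). Syp (FBgn0038826) stood at 16823, 9547 and 7925.5 CPM and then at 28953, 31287 and 25309. The groups did not overlap, with 36 h r1 the highest of its age in Syp, and the rise was 2.49-fold (adjusted p = 0.00193). Per length, in the TPM the authors deposited (transcripts scaled to a fixed total), Imp exceeded Syp in each 36 h library by 1.94-, 3.82- and 3.19-fold. In each 50 h library Syp exceeded Imp, by 4.81-, 5.33- and 5.55-fold. In TPM the order of the 2 levels thus crossed between these ages in all 3 libraries. The TPM of both genes were too low at other ages, as given below, so the size of these ratios is uncertain.

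The heterochronic RNA-binding gene lin-28 (FBgn0035626), which in other animals keeps stem cells in an early state, was at 48.9, 142 and 97.2 CPM at 36 h and at 1.45, 2.51 and 1.98 CPM at 50 h. In raw counts that is 220, 652 and 494 against 9, 12 and 10. It was all but gone in each 50 h library, 48.7-fold lower (adjusted p = 2.22e-09). Eip93F (FBgn0264490), an ecdysone-induced factor of the late state, had 5.55, 4.56 and 5.51 CPM and then 36.4, 148 and 58.7 CPM. The 50 h libraries differed among themselves more than in most genes, and the rise of 15.4-fold (adjusted p = 0.0031) was 8.97-fold without 50 h r2. The ecdysone-response factor br (FBgn0000210) went from 510, 296 and 257 to 896, 832 and 820.5 CPM. Its groups did not overlap, with 36 h r1 again the highest of its age, as in Syp, and it rose 2.4-fold (adjusted p = 0.00221).

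Of 15 temporal factors tested 4 rose and 4 fell, or 3 and 2 without 50 h r1. The ecdysone receptor EcR went from 181, 179 and 155 to 299.8, 331 and 246 CPM (1.7-fold, adjusted p = 0.0113), but was not called without 36 h r2 (0.0515), 36 h r3 (0.0654), 50 h r1 (0.0531) or 50 h r2 (0.0933). Lin29, a zinc-finger gene of the lin-29 type, went from 60.9, 45.2 and 43.7 to 26.6, 29.8 and 21.3 CPM (1.93-fold lower, adjusted p = 0.0237). It was not called without 36 h r1 (0.127), 50 h r1 (0.0748) or 50 h r3 (0.115). The nuclear receptor svp went from 212, 246 and 141 to 93.4, 124 and 106 CPM (1.85-fold lower, adjusted p = 0.0241) and was not called without 36 h r1 (0.0802), 36 h r2 (0.153), 50 h r1 (0.116) or 50 h r3 (0.0866). Under scaling to the ERCC totals Lin29 and svp turned to uncalled values just above 0. Several of the best known factors did not pass. For chinmo, a factor of early-born fates, levels were 1610, 1641 and 1232 and then 1184, 1182 and 903 CPM (adjusted p = 0.305), and the groups did not overlap. The embryonic temporal factors cas (78.9, 100.3 and 96.3, then 84.4, 120.3 and 224 CPM, adjusted p = 0.67) and grh (632, 974 and 683, then 578, 669 and 556 CPM, adjusted p = 0.295) had overlapping groups. D overlapped too (adjusted p = 0.221), mamo was under 10 CPM throughout (adjusted p = 0.225), as was ab (adjusted p = 0.557), and Kr reached 12.2 CPM in 1 library only (adjusted p = 0.815).

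**Figure D2:**
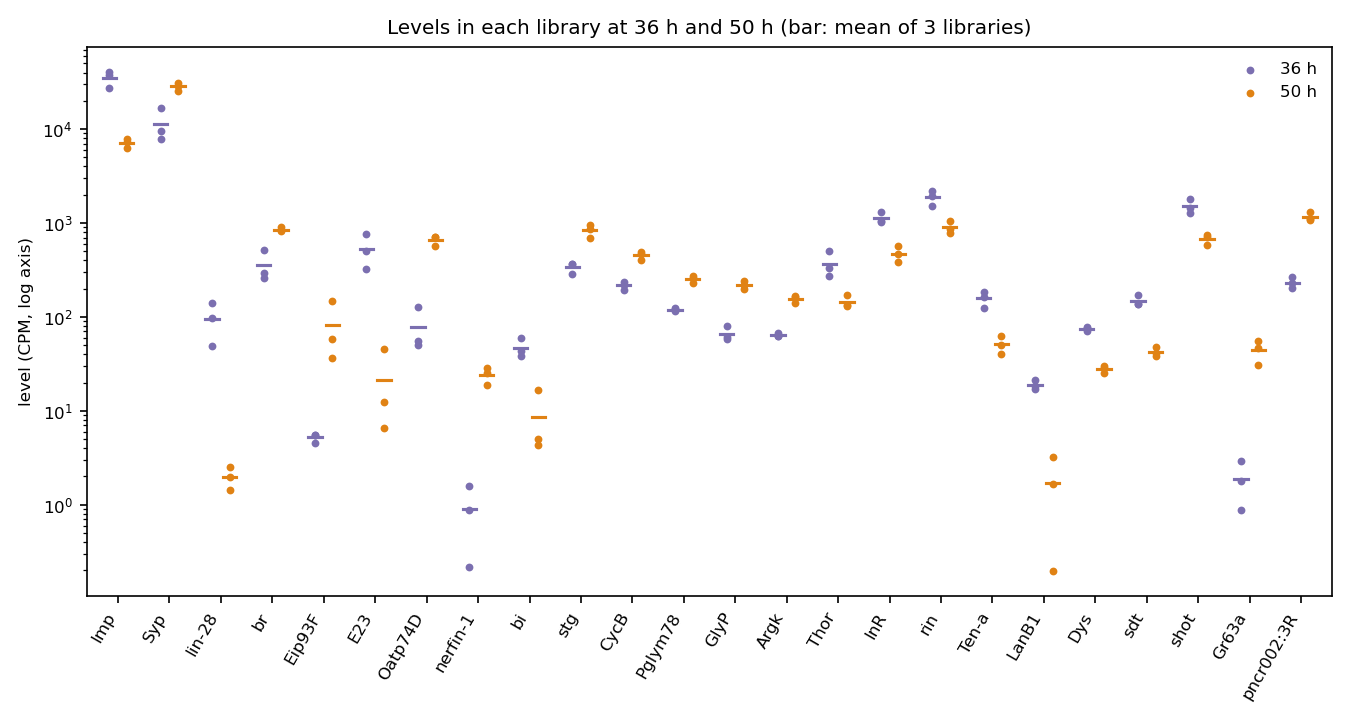
Levels in CPM on a log axis of 24 genes named in the text, with each of the 3 libraries of 36 h (purple) and of 50 h (orange) as a point and the mean of the 3 as a bar. The groups are apart for all 24, with every point of one age above every point of the other.

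Membrane carriers gave some of the steepest changes. E23 (FBgn0020445) is an ATP-driven exporter known to be induced by ecdysone and to lower the response to it in fly cells. It had 327, 770 and 508 CPM at 36 h and 12.4, 45.5 and 6.52 CPM at 50 h, a fall of 25.2-fold (adjusted p = 0.00471), or of 56.3-fold without 50 h r2. Oatp74D (FBgn0036732), known in flies as the importer that brings ecdysone into cells, moved the other way, from 127, 50.2 and 54.9 to 716, 568 and 703 CPM. That rise of 8.57-fold had an adjusted p of 0.0242 and was in every library of 50 h against every library of 36 h. Its call was lost without 36 h r2 (0.102), 36 h r3 (0.0937), 50 h r1 (0.0723), 50 h r2 (0.0659) or 50 h r3 (0.0767). In TPM, E23 was above Oatp74D at 36 h by 2.12-, 14.6- and 7.73-fold, and below it at 50 h by 73.4- and 20.6-fold, with E23 listed at 0 in the third library. A 0 or a low value in the TPM table can be a failed estimate, since Imp is listed at 0 at 84 h against a mean of 228 CPM and Syp has 11.9 TPM at 24 h against 602 CPM, so these ratios between genes are uncertain. As listed in TPM, and with that uncertainty, the order of the exporter and the importer was reversed between the ages. By 84 h both were low in CPM, with means of 3.03 for E23 and 27.3 for Oatp74D.

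Of 19 ecdysone-response genes tested, 4 were called up and E23 was called down (2 up without 36 h r2, 36 h r3, 50 h r1 or 50 h r2), and the median was -0.03 against 0.03 for all genes tested. Of 39 carrier and ABC transporter genes, 4 were called up and 3 down, the falls being E23, Orct and Orct2 (1 up and 3 down without 36 h r2, 50 h r1 or 50 h r2). The organic cation carrier Orct2 had 21.1, 20.2 and 21.7 CPM and then 5.32, 1.68 and 3.56, a fall of 5.85-fold (adjusted p = 0.000282). Its relative Orct had 5.78, 5.65 and 20.3 CPM and then 1.45, 0.629 and 0.395, near the floor of 3 counts at 50 h. The fall was 12.2-fold (adjusted p = 0.00192), or 6.61-fold without 36 h r3 and 20-fold without 50 h r1. Ncc69, a sodium, potassium and chloride cotransporter, rose 2.22-fold, from 61.98, 56.5 and 94.7 to 119, 168 and 185 CPM (adjusted p = 0.00192).

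The zinc-finger factor nerfin-1 (FBgn0028999), which in flies holds young neurons in the differentiated state, had 0.889, 0.217 and 1.57 CPM at 36 h and 25.5, 28.5 and 19.0 CPM at 50 h. It went from about the floor to a low but clear level, 26.2-fold higher (adjusted p = 0.000214), or 42.4-fold without 36 h r3. The Snail-family gene scrt had 3.33, 3.69 and 7.09 CPM and then 14.2, 16.1 and 34.4 (4.54-fold, adjusted p = 0.00368). Both are members of the neuron marker list, of whose 24 tested genes 2 rose and 1 fell. The gene that fell was the acetylcholine receptor subunit nAcRalpha-34E, from 166, 202 and 109 to 59.6, 64.3 and 40.9 CPM (2.89-fold, adjusted p = 0.00151). The pan-neuronal RNA-binding gene elav did not pass, with 168, 229 and 165 CPM and then 174, 240 and 216 (adjusted p = 0.714). The synaptic gene brp had 4.22, 2.61 and 0.197 CPM and then 24.2, 11.9 and 2.77, with overlapping groups (adjusted p = 0.113). For pros, which drives progenitors to stop dividing, the values were 29.3, 32.1 and 62.8 and then 126, 85.5 and 64.6 CPM, without overlap and without a call (adjusted p = 0.061). The 8 intermediate progenitor markers tested gave 0 calls.

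Among other transcription factors more were called lower than higher, though the class as a whole did not shift down. Among 45 zinc-finger, Sox, forkhead and bHLH genes 2 rose, nerfin-1 and scrt, and 5 fell, Lin29 (given above) included, while of 19 Hox and other homeodomain genes tested 0 were called. Of the 45, 24 were above 0 with a median of 0.10. The split was 2 up and 3 down without 36 h r2 or 50 h r3. With ERCC totals and without 50 h r1 it was 1 up and 0 down. The T-box gene bi went from 43.1, 59.5 and 38.2 to 4.99, 16.5 and 4.34 CPM, 5.49-fold lower (adjusted p = 0.00143) or 10.1-fold lower without 50 h r2. The zinc-finger gene elB went from 68.2, 110.5 and 91.9 to 37.7, 32.7 and 31.2 CPM (2.66-fold lower, adjusted p = 0.00409). The groups did not overlap in either. The clock repressor cwo had 106, 130.3 and 79.5 and then 60.4, 60.1 and 37.1 CPM (2-fold lower, adjusted p = 0.00595, but 0.0568 without 36 h r2, and an uncalled 0.21 on the log2 scale with ERCC totals). Another clock gene, tim, was near 1 CPM at 36 h (0.222, 1.09 and 1.57) and uneven at 50 h, with 15.95, 17.18 and 2.96. Its call (adjusted p = 0.0187) was lost without 36 h r1 (0.0884), 36 h r2 (0.0825), 50 h r1 (0.0992) or 50 h r2 (0.104). CrebA, a regulator of secretory genes, had 11.3, 19.97 and 13.6 and then 6.60, 6.70 and 3.36 CPM (adjusted p = 0.0134), without a call when 36 h r2 (0.102) or 50 h r3 (0.0876) was left out.

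Of 21 core genes of the Notch pathway 0 were called, the receptor N included. Of the 21, 4 had all 50 h libraries above those of 36 h (13.1% of all genes tested did) and 5 had all below (12.1%). Leaving out 1 library called 1 core gene (24 h r1 or 50 h r1) or 2 (24 h r2, 24 h r3 or 84 h r1). Many Enhancer of split and Bearded genes are direct Notch targets, and those of the bHLH type hold back neuronal fate. Of the 12 tested members of both families 2 rose, and all 12 had a log2FC above 0 (52.3% of all genes did), with a median of 1.34. E(spl)m7-HLH (FBgn0002633) went from 16.7, 5.21 and 19.9 to 48.8, 113 and 149 CPM, 7.41-fold higher without overlap (adjusted p = 0.0113). E(spl)malpha-BFM had 3.11, 3.26 and 5.12 and then 7.57, 23.9 and 73.5 CPM, 9.04-fold higher (adjusted p = 0.00515). Without 50 h r3, its highest library, the rise was 4.05-fold and not called (0.0968). That library was the highest at 50 h in both genes, and without it the median of the 12 was 0.24. On log2(TPM + 1) the median was -0.33, so the direction of the family differs between the count table and the TPM table. Of the 12, 3 had groups without overlap, all upward (13.1% of all genes tested did so upward). For E(spl)mgamma-HLH, the neuroblast member, levels were 241, 155 and 205 and then 142, 334.4 and 378 CPM (adjusted p = 0.505). The stem cell factor dpn, a bHLH gene of the same wider class, had 136, 197 and 270.2 and then 185, 333.7 and 466 CPM, with overlap (adjusted p = 0.194).

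Cyclins and the phosphatase stg were among the mitotic genes that rose. Of 64 genes of mitosis and the G2 to M transition, 9 were called up (1.88% of all genes tested were) and 0 down. In this class 52 were above 0 (52.3% of all genes were), with a median of 0.22 (0.03 for all genes). Leaving out a library of 36 h or 50 h gave 6 or 7 calls, all up, and scaling to ERCC totals gave 4, or 0 without 50 h r1. The phosphatase stg (FBgn0003525), the fly Cdc25 that starts mitosis by activating Cdk1, went from 366, 368 and 288 to 700.4, 868 and 948 CPM. It rose 2.46-fold (adjusted p = 3.31e-05), the largest change of the class among called members. The mitotic cyclins rose beside it. CycB went from 218, 236 and 194.5 to 467, 485 and 408 CPM (2.1-fold, adjusted p = 0.000125). CycA went from 463, 372.5 and 470.2 to 816, 678 and 852 CPM (1.8-fold, adjusted p = 0.00152), and CycB3 from 454, 496 and 384 to 751, 1045.2 and 831 CPM (1.97-fold, adjusted p = 0.00231). All 3 cyclins had groups well apart. The spindle pole gene asp had 157, 155 and 167 and then 342, 295 and 321 CPM (2-fold, adjusted p = 0.000254). The midzone gene feo, a PRC1 homologue needed for cytokinesis, had 50.7, 46.0 and 41.1 and then 108, 95.5 and 84.1 CPM (2.09-fold, adjusted p = 0.00231).

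The other called members, with smaller folds, each lost the call in at least 4 leave-outs. They were fzy, the Cdc20 activator (1.72-fold, adjusted p = 0.0106), the citron kinase sti (1.56-fold, adjusted p = 0.0335) and the centromere gene Cenp-C (1.78-fold, adjusted p = 0.0429). Without 36 h r1 their adjusted p were 0.0766, 0.0773 and 0.101, and without 36 h r2 they were 0.0533, 0.179 and 0.129. Without 50 h r1 they were 0.0536, 0.116 and 0.0555, and without 50 h r2 they were 0.0595, 0.0515 and 0.142. Without 50 h r3 the values of sti and Cenp-C were 0.142 and 0.157, and without 36 h r3 they were 0.0818 and 0.153. Cenp-C was not called without 84 h r2 (0.0549) or 84 h r3 (0.058) either. Not every mitotic gene moved. The kinase polo had 375, 345 and 329 and then 399, 430.1 and 383 CPM (adjusted p = 0.539).

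The 2 genes of the Ran cycle named here were chosen after their values were seen. The small GTPase ran, which drives nuclear transport and spindle assembly, went from 2177, 1873 and 1881 to 3336, 3617 and 2923 CPM (1.67-fold, adjusted p = 0.00343). Its exchange factor Bj1 went from 353, 294 and 317 to 610, 527.5 and 527 CPM (1.73-fold, adjusted p = 0.00337). Of 48 genes of DNA replication and the G1 to S transition, 34 were above 0 (52.3% of all genes tested were) and 2 rose (1.88% of all did). The 2 were the Mcm helicase subunits Mcm7 (1.5-fold, adjusted p = 0.0221) and dpa (1.57-fold, adjusted p = 0.0308). Neither was called when any one of the 6 libraries of 36 h and 50 h was left out (adjusted p from 0.0575 to 0.112 for Mcm7 and from 0.0661 to 0.131 for dpa). The S-phase factor E2f had 891, 841 and 780 and then 1064, 1049 and 1114 CPM (adjusted p = 0.244). Of 22 genes of asymmetric division 0 were called.

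Of 16 glycolysis genes 9 were called up (1.88% of all genes tested were) and 0 down, and 14 were above 0 (52.3% of all) with a median of 0.69. The count was 2 without 36 h r2, 3 without 50 h r1, 4 without 50 h r2 and 5 without 36 h or 50 h r3, and over all 12 leave-outs the median lay between 0.58 and 0.73. It was 3 with ERCC totals, or 0 without 50 h r1. The phosphoglycerate mutase Pglym78 (FBgn0014869) had 124, 115 and 120.5 CPM at 36 h and 257, 272 and 231 at 50 h (2.11-fold, adjusted p = 0.000214). The triose phosphate isomerase Tpi had 89.96, 79.0 and 85.2 and then 159, 149 and 139 CPM (1.76-fold, adjusted p = 0.00394). In both the libraries of one age lay close together and far from the other age. The aldolase Ald went from 859, 725 and 739 to 1371, 1231 and 1192.5 CPM (1.63-fold, adjusted p = 0.00877), without a call when 36 h r2 (0.072) or 50 h r1 (0.0575) was left out. The dehydrogenase Gapdh1 went from 258, 284 and 315 to 453, 488 and 430.1 CPM (1.6-fold, adjusted p = 0.00888), without a call when 36 h r1 (0.0655), 36 h r2 (0.0535) or 50 h r2 (0.0594) was left out. Pgm, the phosphoglucomutase that links glycogen to glycolysis, was low, with 2.44, 2.39 and 4.13 and then 19.0, 9.64 and 13.8 CPM. Its rise of 4.7-fold (adjusted p = 0.0152) was not called without 36 h r1 (0.074), 36 h r2 (0.0965) or 50 h r1 (0.0978).

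The remaining called enzymes rose by 1.45- to 1.69-fold. They were the phosphofructokinase Pfk (adjusted p = 0.026), the pyruvate kinase PyK (0.0275), the enolase Eno (0.0335) and the isomerase Pgi (0.0392). None of these 4 was called without 36 h r2 (0.166, 0.179, 0.118 and 0.235), without 36 h r3 (0.11, 0.0937, 0.0735 and 0.0516) or without 50 h r1 (0.0894, 0.0967, 0.132 and 0.112). The same was so without 50 h r2 (0.0879, 0.0846, 0.12 and 0.152) and without 50 h r3 (0.0904, 0.0889, 0.0807 and 0.0571). Eno and Pgi were not called without 36 h r1 (0.141 and 0.078) or 84 h r3 (0.0529 and 0.0526) either, nor Eno without 24 h r1 (0.0516) or 84 h r2 (0.0515). The lactate dehydrogenase ImpL3, which marks aerobic glycolysis, had 182, 58.0 and 111 and then 295, 216 and 225 CPM, with groups apart and no call (adjusted p = 0.0742). Among the 16 the uncalled Hex-C and fbp were below 0, both under 5 CPM.

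The glycogen phosphorylase GlyP (FBgn0004507), which releases glucose units from glycogen, went from 79.5, 57.8 and 61.2 to 242, 220 and 198 CPM, 3.32-fold higher (adjusted p = 2.59e-06). The arginine kinase Argk (FBgn0000116), which stores high-energy phosphate, went from 67.3, 61.9 and 63.2 to 163, 167 and 140 CPM, 2.44-fold higher (adjusted p = 0.000195). Both stood far outside the spread of the libraries. Glycogenin, which primes new glycogen chains and was chosen after its values were seen, went from 253, 235 and 259 to 380.3, 479 and 439 CPM (1.74-fold, adjusted p = 0.00311). Of 9 genes of glycogen, trehalose and phosphagen 3 rose, and in this list Pgm stands again.

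**Figure D3:**
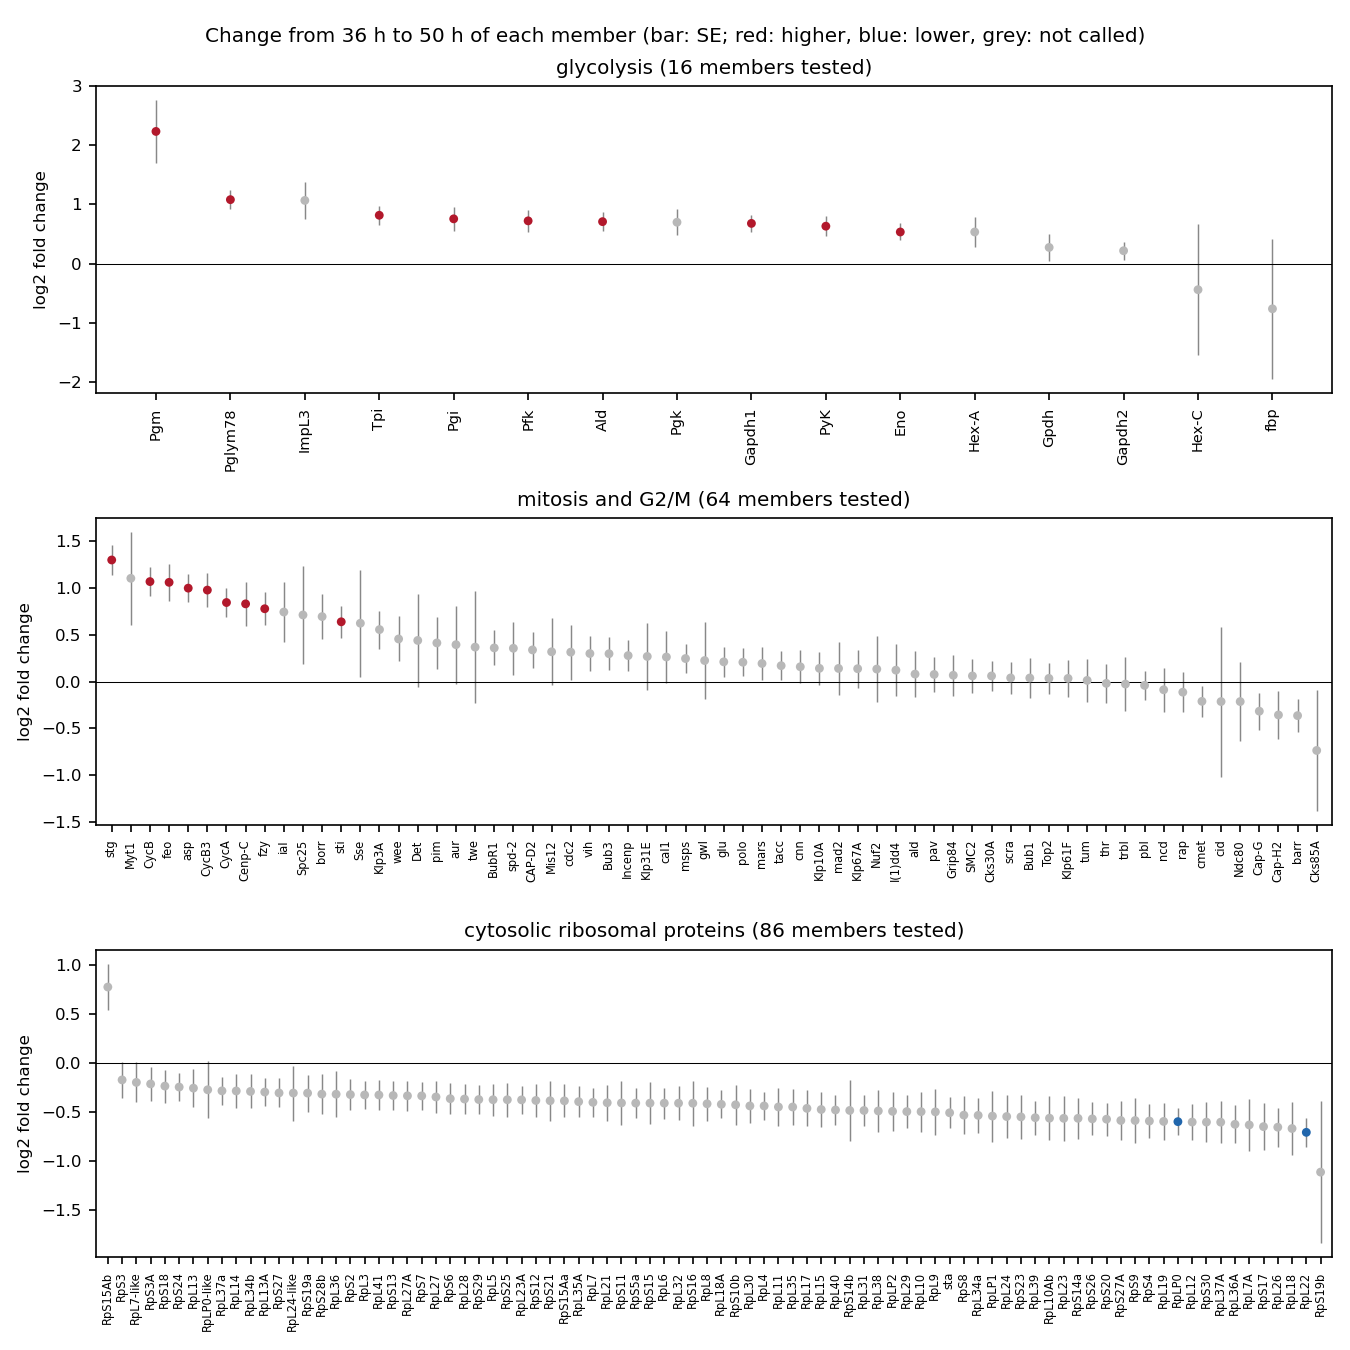
The log2 fold change at 50 h against 36 h of each tested member of 3 gene classes, with its SE as a bar and called members in red (higher) or blue (lower). Of 16 glycolysis genes 14 lie above 0 and of 64 mitosis genes 52 do, while of 86 cytosolic ribosomal protein genes 85 lie below 0 with 2 called.

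Of 21 genes of the tricarboxylic acid cycle 2 were called up (0 without 36 h r3 or any one of the 50 h libraries, and 1 without 36 h r1, 36 h r2, 84 h r2 or 84 h r3), with 18 above 0 and a median of 0.26. Of 28 nuclear genes of oxidative phosphorylation 1 was called up, with 26 above 0 and a median of 0.15. That count was 0 without 36 h r1, 36 h r2 or any one of the 50 h libraries, and 2 without 36 h r3. The proton pump of acidic organelles, the vacuolar ATPase, gave 4 calls up and 0 down of 24, with 18 above 0. Its subunit genes VhaM9.7-b (2.06-fold, adjusted p = 0.00888) and VhaAC39-1 (1.99-fold, adjusted p = 0.00926) went from 28.0, 26.7 and 45.1 to 63.3, 75.0 and 67.3 CPM and from 51.5, 31.3 and 47.2 to 79.6, 110.0 and 69.3 CPM. The former was not called without 36 h r1 (0.0606) or 36 h r2 (0.0815), and the latter not without 36 h r2 (0.0987) or 50 h r2 (0.0933). Vha55 rose 1.77-fold (adjusted p = 0.0127), not called without 36 h r1 (0.05), 36 h r3 (0.0687) or 50 h r2 (0.121). Vha68-2 rose 1.46-fold (adjusted p = 0.0416), with a lost call in 9 leave-outs, at most 0.235 without 36 h r2. The class count was 1 without 36 h r1, 36 h r2 or 50 h r2 and 2 without 36 h r3.

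The insulin receptor InR (FBgn0013984) went from 1044, 1313 and 1021 to 562, 470 and 387 CPM, 2.38-fold lower (adjusted p = 0.000101). Thor (FBgn0261560), the 4E-BP that holds back cap-dependent translation and is a known target of the same pathway's factor foxo, went from 499, 270.5 and 328 to 171, 130.1 and 135 CPM, 2.52-fold lower (adjusted p = 0.000413). For both genes all 50 h libraries lay below all 36 h libraries, with 36 h r1 the highest in Thor. They were the 2 calls among 25 insulin, TOR and Myc genes (0 up), and the median of the list was -0.22. With ERCC totals that median was 0.86, below the 1.10 of all genes. Other members did not pass, among them the Myc gene dm (1843, 1488 and 1263, then 1359, 1188 and 1142 CPM, adjusted p = 0.287), Akt1 (234, 260.3 and 232.5, then 196, 213 and 223 CPM, adjusted p = 0.589) and foxo (81.8, 79.2 and 66.3, then 83.3, 62.9 and 74.8 CPM, adjusted p = 0.948).

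The genes of the cytosolic ribosome were lower as a class without reaching single calls for most. Of 86 tested, 85 were below 0, with a median of -0.42, and 69 had all 50 h libraries below all 36 h libraries (12.1% of all genes tested did so). Only 2 were called, RpL22 and RpLP0, so the share called, at the sizes seen here, was near that of all genes. In sum the class went from 58279 to 70351 CPM at 36 h to 42616 to 50542 CPM at 50 h. With ERCC totals the median of the class was 0.67, still below the 1.10 of all genes, and -0.19 without 50 h r1, against 0.34. RpL22, a protein of the large subunit, had 278, 253 and 252.5 and then 165, 145 and 168 CPM (1.64-fold lower, adjusted p = 0.00595, a log2FC of 0.40 with ERCC totals). RpLP0 of the ribosomal stalk had 554, 571 and 552 and then 358, 375 and 372 CPM (1.52-fold lower, adjusted p = 0.0113, a log2FC of 0.47 with ERCC totals). Its call was lost without 36 h r2 (0.0505), 50 h r1 (0.0646) or 50 h r3 (0.0501). The class count of 2 was 12, 11 and 10 without 24 h r2, 24 h r3 and 84 h r1, and 1 without 50 h r1 or 50 h r3. The copy RpS15Ab was alone above 0, with 29.3, 28.4 and 27.4 and then 46.6, 44.4 and 54.3 CPM (adjusted p = 0.0652), and reads shared with its near-identical copy make it uncertain. Mitochondrial ribosomal proteins lay on the other side, with a median of 0.21, 51 of 74 above 0 and 1 called up (0 without 36 h r1, 36 h r2, 50 h r1 or 50 h r3). Of 49 translation factors Thor and NAT1 fell (1 call without 50 h r2 or 50 h r3). NAT1, an eIF4G relative of cap-independent translation, was 1.52-fold lower (832, 771 and 786, then 602, 500.3 and 468 CPM, adjusted p = 0.0144). It was not called without 36 h r1 (0.0564), 50 h r2 (0.0781) or 50 h r3 (0.0993). Ribosome biogenesis (37 genes) and tRNA synthetases (21 genes) gave 0 calls.

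RNA-binding regulators fell more often than they rose. Of 43 tested, 5 fell and 2 rose, with a median of -0.19 (0.90 with ERCC totals, below all genes). Among the 5 are Imp and lin-28, which are in this list too, as Syp is among those that rose. The stress-granule gene rin, the fly G3BP, went from 1944, 2177 and 1524 to 873, 1050.0 and 784 CPM, 2.09-fold lower (adjusted p = 0.000899). The hnRNP gene sqd, known for the transport of messages in the fly egg, went from 2002, 1937 and 1631 to 871, 1118 and 982 CPM, 1.87-fold lower (adjusted p = 0.0015). Both groups were apart by a wide margin, and both genes turned to uncalled values just above 0 under ERCC totals (0.040 and 0.13 on the log2 scale). The gene shep had 439, 472 and 372 and then 282, 236 and 257.5 CPM (1.65-fold lower, adjusted p = 0.0103), not called without 36 h r2 (0.0654) or 50 h r2 (0.0671). Dcr-2, the dicer of the small interfering RNA pathway, rose 1.85-fold, from 80.2, 83.8 and 78.5 to 133, 130.5 and 185 CPM (adjusted p = 0.00604, but 0.0676 without 50 h r3). The count of 7 was 11 without 24 h r2 or 84 h r1.

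Of 63 axon guidance and adhesion genes 7 fell and 2 rose, with a median of -0.13. The count was 5, all down, without 36 h r1, and 4, all down, without 36 h r2 or 50 h r3, and with ERCC totals it was 2 up, or 0 without 50 h r1. The teneurins, large adhesion receptors that match synaptic partners in the fly brain, fell together. Ten-a (FBgn0259240) had 164, 184.5 and 125 and then 49.9, 63.1 and 40.3 CPM (3.09-fold lower, adjusted p = 3.08e-05). Ten-m (FBgn0004449) had 73.5, 87.3 and 67.5 and then 31.9, 23.9 and 20.3 CPM (2.99-fold lower, adjusted p = 0.000101). The fold of the pair was alike at this step. The repulsive ligand sli had 119.5, 138 and 97.4 and then 52.8, 47.4 and 67.5 CPM (2.12-fold lower, adjusted p = 0.00292). The leucine-rich membrane gene kek6 had 30.0, 31.9 and 26.2 and then 11.9, 9.85 and 10.5 CPM (2.72-fold lower, adjusted p = 0.00941). Its relative kek1, an inhibitor of the EGF receptor, had 41.3, 60.8 and 51.8 and then 27.1, 15.1 and 17.8 CPM (2.56-fold lower, adjusted p = 0.0091). It was not called without 36 h r2 (0.0626), 50 h r2 (0.0547) or 50 h r3 (0.0515).

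Among 24 genes of laminins, matrix and integrins 4 fell and 1 rose (3 calls without 36 h r1, 36 h r3 or 50 h r1, and 2 without 36 h r2 or 50 h r2). The laminin chain LanB1 had 18.4, 21.3 and 16.9 and then 3.22, 1.68 and 0.198 CPM, 10.7-fold lower (adjusted p = 0.000522), or 20-fold lower without 50 h r1, the highest of its age. The dystrophin gene Dys, which ties the matrix receptor to actin, had 77.5, 70.3 and 75.4 and then 30.3, 28.5 and 25.5 CPM, with very little spread, and fell 2.65-fold (adjusted p = 6.06e-05). The giant matrix protein dp, which is not a member of that list, rose from 9.11, 4.78 and 3.15 to 24.3, 25.4 and 25.3 CPM (4.41-fold, adjusted p = 0.00109). Inside the cell, shot, the spectraplakin that links actin and microtubules, fell 2.22-fold, from 1432, 1785 and 1284.5 to 704, 743.5 and 580 CPM (adjusted p = 0.00043). It was the 1 call down among 38 cytoskeletal genes, of which 2 were called up (0 without 36 h r1 or 50 h r2, and 1 without 36 h r2, 36 h r3, 50 h r1, 50 h r3, 84 h r2 or 84 h r3). Msp-300, a nesprin that anchors nuclei and was chosen after its values were seen, fell 2.71-fold, from 992, 1319 and 891 to 484, 406 and 292.5 CPM (adjusted p = 0.00043). The stathmin gene stai, a regulator of microtubules, had 77.8, 61.9 and 34.5 and then 13.2, 12.8 and 9.87 CPM (4.84-fold lower, adjusted p = 0.000777). The polarity scaffold sdt, the partner of Crumbs, had 138, 170.0 and 137 and then 48.0, 38.1 and 41.5 CPM (3.48-fold lower, adjusted p = 0.000276).

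**Figure D4:**
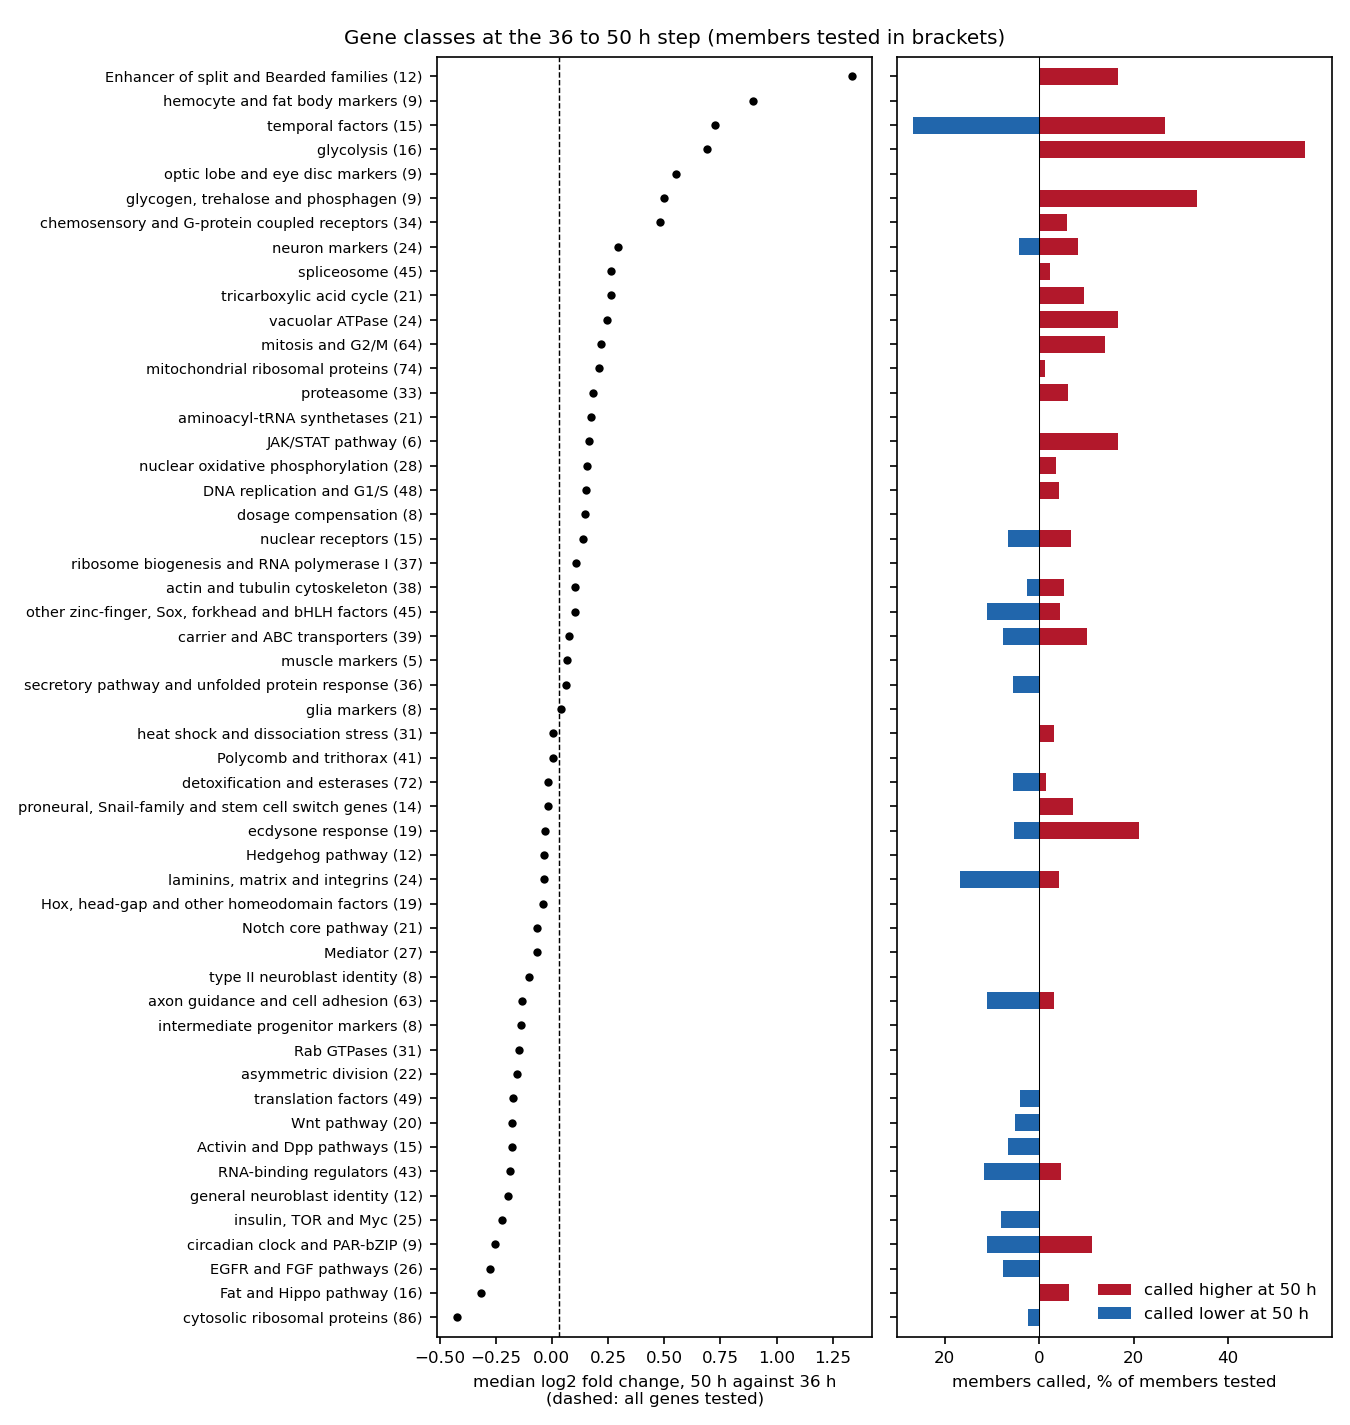
Left, the median log2 fold change of each of 52 gene classes (members tested in brackets), with the median of all genes tested, 0.03, as a dashed line. Right, the share of members called higher (red) or lower (blue) at 50 h; glycolysis has the largest share called up, 9 of 16, and 17 classes have no called member.

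Of further signalling lists, Activin and Dpp had 1 call down of 15 tested and Wnt 1 down of 20. EGFR and FGF had 2 down of 26 (0 without 36 h r2), and JAK/STAT 1 up of 6. Of all genes tested 4.25% were called. Among the falls were those of shn, the zinc-finger factor of Dpp signalling (352, 397 and 308, then 182, 213.5 and 183.5 CPM, 1.83-fold, adjusted p = 0.00267, a log2FC of 0.21 with ERCC totals), and of Xbp1, the factor of the unfolded protein response (150.4, 151 and 132, then 79.4, 61.0 and 78.2 CPM, 1.98-fold, adjusted p = 0.00169, a log2FC of 0.16 with ERCC totals). Each was 1 of 1 or 2 called members of its list. Of 16 Fat and Hippo genes only lft rose, a modulator of Fat and Dachsous in tissue polarity, from 6.66, 0.434 and 2.76 to 25.9, 31.4 and 32.6 CPM. That was 9.11-fold (adjusted p = 0.000756), or 18.1-fold without 36 h r1, while 12 of the 16 were below 0. Hedgehog genes (12 tested), Mediator subunits (27), Rab GTPases (31) and Polycomb and trithorax genes (41) gave 0 calls. Rapgap1, which switches off the GTPase Rap1, rose 4.64-fold, from 13.3, 6.73 and 9.05 to 42.0, 62.9 and 30.4 CPM (adjusted p = 0.00239).

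Some transcripts changed in these stem cells that are known from elsewhere or have no known role. The carbon dioxide receptor subunit Gr63a (FBgn0035468), known from fly antennae, had 1.78, 0.868 and 2.95 CPM and then 55.4, 46.1 and 30.8, a rise of 23.2-fold (adjusted p = 2.08e-05). The esterase alpha-Est9 had 24.9, 27.1 and 28.2 and then 3.22, 2.51 and 5.13 CPM (7.34-fold lower, adjusted p = 0.0031). The effector caspase Ice, chosen after its values were seen, had 32.2, 13.2 and 24.0 and then 70.1, 69.6 and 66.2 CPM (2.96-fold, adjusted p = 0.00146). In each of the 3 the groups were apart. Taf12L, a relative of a general transcription factor subunit, rose 5.23-fold (6.66, 14.3 and 13.2, then 77.2, 60.8 and 41.5 CPM, adjusted p = 0.00214). The putative noncoding RNA pncr002:3R (FBgn0063127) went from 227, 263 and 204 to 1321, 1086 and 1093 CPM, 5.05-fold higher (adjusted p = 6.12e-08), and reached a mean of 6897 CPM at 84 h. Genes known only by a number made up 37 of the rises and 62 of the falls, of 3763 such genes tested. Over all 7978 genes tested there were 150 rises and 189 falls. CG9990 rose 9.25-fold, from 8.22, 6.73 and 5.31 to 59.0, 71.7 and 56.9 CPM (adjusted p = 2.02e-05), and CG40160 fell 10.8-fold, from 24.4, 18.2 and 14.8 to 2.58, 0.419 and 2.17 CPM (adjusted p = 0.00336). Further falls of over 3-fold were those of fok (40.2 ± 5.54 to 11.9 ± 1.30 CPM, SD, n = 3 here and below), of the kinase gene sff (39.4 ± 5.94 to 11.8 ± 1.87) and of SP1173 (216 ± 25.6 to 65.3 ± 16.7), all without overlap, with adjusted p of 0.000878, 0.000899 and 3.31e-05.

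To ask whether the step from 36 to 50 h stands out from the course around it, its log2FC was tested against the mean of the steps before it (24 to 36 h) and after it (50 to 84 h). The 3 steps last 14 h, 12 h and 34 h, and no allowance was made for that. Of 7978 genes 40 differed (0.501%), 19 with a more positive and 21 with a more negative step, and 761 had an unadjusted p under 0.05. The count was 8 without 36 h r2, 23 without 36 h r3, 15 without 50 h r2 and 12 without 50 h r3. The genes named next were taken from it after their values were seen. For lin-28 the step was steeper than its neighbours (mean CPM of 148, 95.9, 1.98 and 0.595 over the 4 ages, adjusted p = 0.00178). Imp, with 58992, 35397, 7138 and 228 CPM, was not shown to differ from its neighbours at this step (adjusted p = 0.648), and neither was Syp (602, 11432, 28516 and 25560 CPM, adjusted p = 0.569).

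Several of these genes had their highest or lowest mean at 50 h. The peak of stg (315, 341, 839 and 494 CPM, adjusted p = 0.00302), of nerfin-1 (5.16, 0.893, 24.3 and 5.53 CPM, adjusted p = 0.00302), of the Toll-family receptor Tollo (78.9, 72.1, 162 and 97.6 CPM, adjusted p = 0.011) and of the unnamed CG12496 (107, 187, 698 and 241 CPM, adjusted p = 0.00136) lay at 50 h. The means of InR (1403, 1126, 473 and 693 CPM, adjusted p = 0.0209) and of Thor (570.4, 366, 145 and 328 CPM, adjusted p = 0.0253) were lowest at 50 h and higher again at 84 h, as were those of Orct2 (45.0, 20.98, 3.52 and 14.6 CPM, adjusted p = 0.0209) and CG17075 (58.8, 41.9, 7.37 and 13.4 CPM, adjusted p = 0.0197). These adjusted p are of the step. For 84 h against 50 h, Thor (0.00158) and Orct2 (0.00325) were called, while InR (0.098) and CG17075 (0.231) were not. Pex7, the receptor that brings enzymes into peroxisomes, had 1370, 1457 and 1381 CPM in the 36 h libraries and 455, 436 and 449.8 in those of 50 h, a fall of 3.14-fold, against means of 1038 at 24 h and 478 at 84 h (adjusted p = 0.00302 for the step). The means of GlyP (57.7, 66.2, 219.8 and 350.0 CPM, adjusted p = 0.0323) were higher again at 84 h (adjusted p = 0.0326 for 84 h against 50 h), and Pglym78 (154.5, 119.8, 253 and 299.8 CPM, adjusted p = 0.0332) had its lowest mean at 36 h. Rapgap1 (18.2, 9.704, 45.1 and 28.7 CPM, adjusted p = 0.0327) had its highest mean at 50 h, with no call for 84 h against 50 h (adjusted p = 0.535). Of the 13 genes named here for their step, 5 kept the call in each leave-out, which were lin-28, stg, nerfin-1, CG12496 and Pex7. The other 8 lost it in 2 to 8 leave-outs, with their highest adjusted p without 36 h r1 for Thor (0.142), without 50 h r3 for Tollo (0.0572) and InR (0.123) and without 50 h r2 for Orct2 (0.0935). Without 36 h r2 it was 0.12 for CG17075, 0.224 for GlyP, 0.208 for Pglym78 and 0.218 for Rapgap1.

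**Figure D5:**
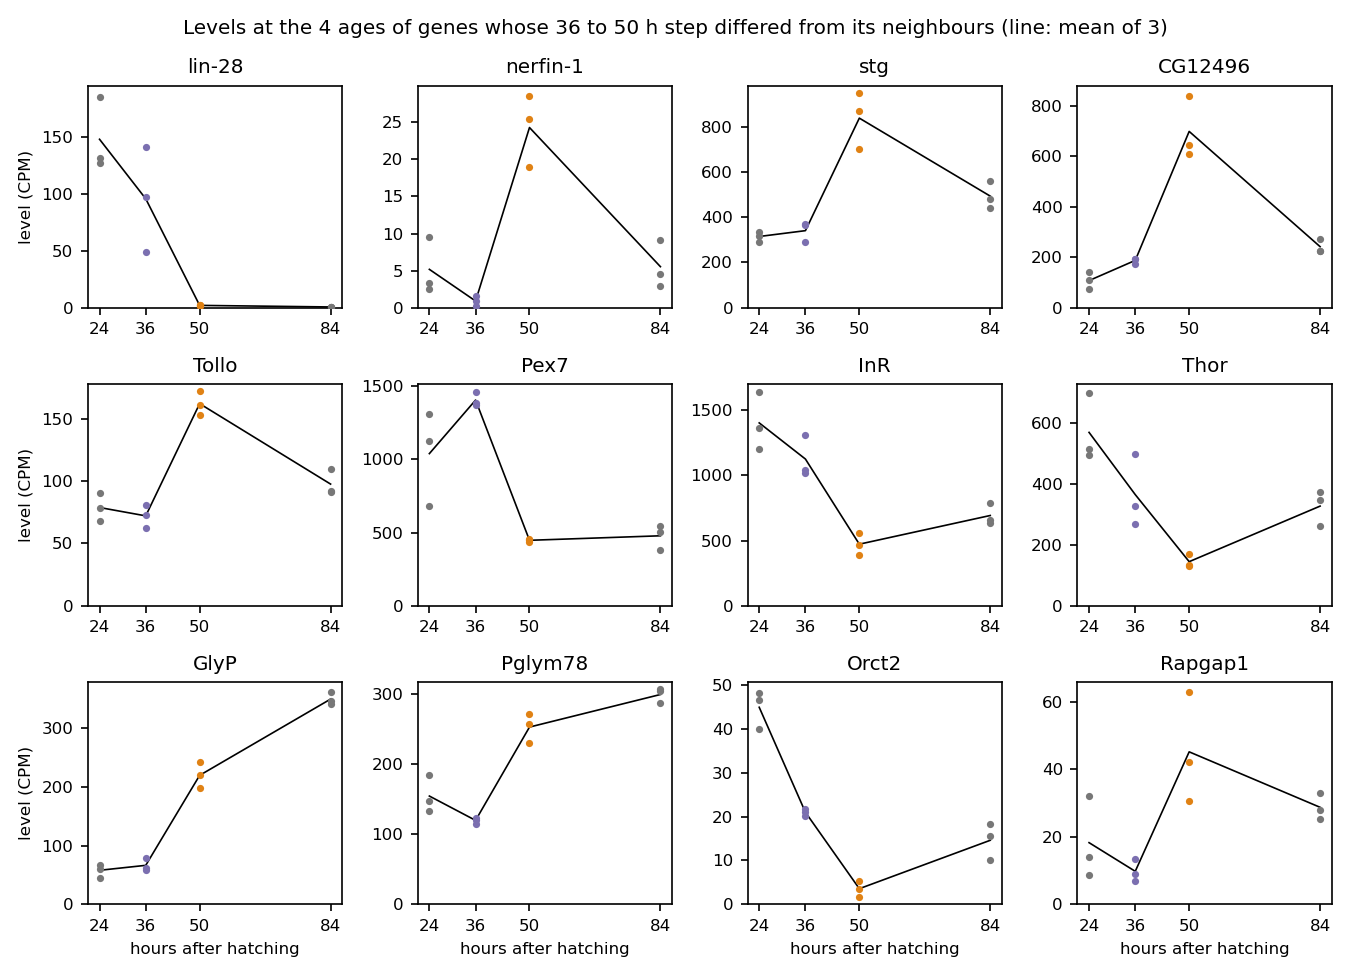
Levels in CPM at 24, 36, 50 and 84 h after hatching of 12 genes whose step from 36 to 50 h differed from the steps around it, with each library as a point and the mean of 3 as a line. Peaks at 50 h (stg, nerfin-1, CG12496, Tollo), lows at 50 h (InR, Thor, Orct2) and a 50 h mean close to that of 84 h (Pex7) are seen among them.

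The 84 h and 24 h libraries share none with the comparison of 50 h with 36 h, so the calls of both can be compared, although a call between 24 and 84 h does not show that a gene kept its 50 h level (Thor, InR, Orct2 and CG17075 are called lower over the whole course with means at 84 h above those of 50 h). Between 24 and 84 h, 651 genes were higher (8.16%) and 853 lower (10.7%). With ERCC totals the split was 2343 up and 34 down, or 3959 and 58 without 50 h r1, and on log2(TPM + 1) it was 995 up and 417 down. Of the 150 genes that rose from 36 to 50 h, 96 (64%) were among the 651, of which they are 14.7%, and 0 were called the opposite way. Of the 189 that fell, 157 (83.1%) were among the 853, of which they are 18.4%, and 1 was called the opposite way. The remaining 54 rises and 31 falls were not called between 24 and 84 h. In the first group are Imp, Syp, Eip93F, pncr002:3R, CycB, GlyP, Argk, Ten-a and LanB1. Among those with no call over the whole course are EcR (adjusted p = 0.204), Oatp74D (0.457), nerfin-1 (0.908), E(spl)m7-HLH (0.665), Tollo (0.244), PyK (0.777) and elB (0.168). Both fits share one estimate of the spread between libraries.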

How the data were processed

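Gene counts came from the authors' deposited table, a whole number per gene symbol and ERCC RNA with no scaling, from the values in it; the 92 ERCC rows and 1 row without a symbol (at most 8.83e-05% of a library) were left out of the sizes. TPM (transcripts scaled to a fixed total after division by length) are the authors' deposited values and served for levels between genes and for an alternative with limma 3.58.1 on log2(TPM + 1) or log2(TPM + 0.1). Tools named per the submitters' processing notes are HTSeq 0.6.1p1, STAR 2.4.0i, cutadapt 1.7.1, CASAVA and Bowtie2 2.1.0, with the builds mm10, dm3 and BDGP5. The notes give no roles and no strand setting, so values of overlapping or antisense genes and of near-identical copies are uncertain, and no coordinates are printed. RNA of about 100 pooled cells was amplified with the Ovation RNA-Seq System V2 before the Encore library kit, per the labels' protocols. No molecular identifiers are stated, so floors cover counting error only. Each SE and SD also includes the spread between libraries.

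Differences were tested on the deposited counts with edgeR 4.0.16 in R 4.3.3 (TMM, filterByExpr by age, robust quasi-likelihood fit, all 12 libraries, 8 residual degrees of freedom). The filter kept 7978 of 15339 genes, with 99.85% of the counts, with a common biological coefficient of variation of 36.2%. All p-values are two-sided with Benjamini and Hochberg adjustment over all genes tested. A fold is 2 to the power of the fitted log2FC, and SE is the log2FC over the square root of its F. On simulated counts of 7745 genes, 45 of 100 changes of 2-fold and 81 of 100 of 4-fold were called, with 4 false calls. The changes were planted only in genes above a minimum mean level, so recovery in the rarest genes was not tested. All other genes were drawn at one level across the ages, with the spread estimated by the fit itself. Chi-square per degree of freedom between libraries of one age was 10.7 to 48.1, more than counting noise gives, so no library is a second deposit of another.

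The 52 gene lists and the members described were chosen with earlier results of these data known, and lists are given as counts and medians with no test of the list. The rule for named genes took, among called genes with groups apart and a higher mean of at least 10 CPM, the 20 largest rises and falls, numbered genes (CG or CR) among the 5 largest each way, up to 6 called members of each list, all temporal factors, and the highest member of a list with no call; fewer are named. Other genes named without a call were chosen after their values were seen. FlyBase identifiers were found in the TPM table (6495 symbols) or through current symbols (6190), and 2654 symbols have none. Alternatives were DESeq2 1.42.0, its size factors, ERCC totals, other filters, the 6 libraries alone, a replicate block, cell number as a covariate, TPM, and each library left out.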

Additional observations from a re-analysis of the deposited data

How the results depend on the processing

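The 339 calls between 36 and 50 h were 541 with no filter beyond 1 count, 578 (273 up, 305 down) with the 6 libraries of 36 and 50 h alone, 528 with DESeq2, 148 with ERCC totals (29 without 50 h replicate 1, an alternative chosen after seeing the data), and 157 to 444 when each library was left out. They were 248 on log2(TPM + 1), 177 up and 71 down. The 40 genes whose step differed from its neighbours were 143 with no filter, 87 with DESeq2, 15 with cell number as a covariate, 11 on log2(TPM + 0.1), 7 with ERCC totals (4 without 50 h replicate 1) and 8 to 55 in the leave-outs. The 1504 calls between 24 and 84 h were 2377 with ERCC totals (2343 up, 34 down, and 4017 without 50 h replicate 1) and 938 to 1598 in the leave-outs, with 949 and 938 without 84 h replicate 2 and 3. Other settings stayed within 1.5 times in the total, with the split moved to 995 up and 417 down on log2(TPM + 1) between 24 and 84 h. The cause was not tested.

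Of 99 named genes that were traced through these settings 91 were called, and 62 kept the call in each leave-out. Further genes named without a call, such as elav, pros and polo, are not among the 99. Of the 91, the direction turned for 11 with ERCC totals, all uncalled there, with log2FC of 0.16 for svp, 0.16 for Lin29, 0.21 for cwo, 0.40 for RpL22, 0.47 for RpLP0, 0.57 for NAT1, 0.040 for rin, 0.13 for sqd, 0.44 for shep, 0.16 for Xbp1 and 0.21 for shn. A further 51 kept their direction with ERCC totals but lost the call. With ERCC totals and without 50 h replicate 1, 73 lost it. On log2(TPM + 1) 15 lost it, on log2(TPM + 0.1) 19, and with cell number as a covariate 9. None of the 91 turned in another setting. Turns of genes uncalled in the main fit were not counted. With the replicate number as a block 447 genes were called (183 up, 264 down), 44 for the step and 1615 between 24 and 84 h. Deviations of same-numbered libraries of 36 and 50 h from their age means had correlations over genes of 0.04, 0.10 and 0.16. Those of differently numbered libraries were lower, between -0.12 and 0.010. The main fit has no replicate block, and whether same-numbered libraries share a preparation was not tested. The median SE under 10 CPM was 0.82 on the log2 scale, and whether depth or the small pools set it was not tested.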
